A study of Mus musculus with 30 samples.

Results

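The collagen chains described here are the genes that encode the alpha chains of collagens. They were taken from the count table by symbol, as every gene named Col, a number, the letter a and a number. The rule found 43 of the 33924 genes in the table. By the kind of structure their proteins build, 11 encode fibrillar collagens, 8 encode basement membrane collagens and 24 encode other collagens. A filter on low counts passed 42 of them, and Col6a4 was the exception.

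RNA from mouse thyroid was sequenced in 10 groups, and 28 of 30 labelled samples were analysed here. Wild-type mice and mice with an Arid1a knockout received no treatment. In the other groups all mice carried Braf(V600E), an activating mutation of the kinase Braf, either alone or together with a knockout of Arid1a, Arid2 or Smarcb1, and got vehicle or CKI. CKI is the labels' name for the drug, known as CH5126766, an inhibitor of the kinase MEK, and it was given over 8 days with tissue taken about 2 h after the final dose. Arid1a, Arid2 and Smarcb1 are subunits of SWI/SNF, a complex that moves and evicts nucleosomes. Each group held 3 libraries, except Braf Arid2 knockout under vehicle and under CKI, which held 2 libraries each. Libraries are named by the replicate number in their title. The driver of the mutation and the knockouts, and the age of the mice, are not given in the sources used here.

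Collagen chains wind around one another into long helices, which cells secrete and assemble into the extracellular matrix. Fibrillar collagens (types I, II, III, V, XI, XXIV and XXVII) form the fibres of connective tissue, and fibroblasts are their main source in most organs. Type IV chains form the sheet of the basement membrane, on which the follicular epithelium of the thyroid rests, and types XV and XVIII sit in or beside it. The remaining types include the beaded filaments of type VI, collagens that attach to fibrils (IX, XII, XIV, XVI), the short-chain networks of types VIII and X, and transmembrane collagens such as XIII, XVII, XXIII and XXV.

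Library depth was 23879271 to 34400066 counts. Levels are in CPM, the usual count per library total with that total corrected by TMM. The 13 markers of thyroid follicular cells, among them thyroglobulin, summed to 45980 to 163600 CPM in the untreated groups and to 164 to 1954 CPM in the 4 Braf groups under vehicle, and the lowest sum was in Braf Smarcb1 knockout. Under vehicle, Smarcb1 fell by 3.26 on the log2 scale in Braf Smarcb1 knockout against Braf (SE 0.62, adjusted p = 0.000592, edgeR's quasi-likelihood test). Smarcb1 stood there at 2.28 to 17.9 CPM against 57.0 to 131. Arid1a stood at 27.9 to 39.8 CPM in wild type, 21.8 to 27.3 in Arid1a knockout (-0.47, SE 0.42, adjusted p = 0.474), 11.6 to 30.9 in Braf and 11.98 to 15.9 in Braf Arid1a knockout, and Arid2 at 37.5 and 15.5 CPM in Braf Arid2 knockout against 7.03 to 19.7 in Braf. Arid1a and Arid2 counts were not called lower in their own knockouts by that test (Arid1a -0.60, SE 0.42, adjusted p = 0.404 and Arid2 0.87, SE 0.39, adjusted p = 0.189, each against Braf under vehicle). The counts are per gene, single exons were not read, and the reason was not tested. The labels carry 2 texts on every sample, one of frozen whole thyroid for the wild-type, Arid2 and Smarcb1 mice and one of sorted YFP+ cells. Whether preparation differed between groups is therefore not settled by the labels, and a difference of preparation and a difference of genotype cannot be told apart. In such bulk RNA, fewer cells of a type and less RNA per cell cannot be told apart either.

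The summed level of the collagen genes varied widely within groups. In Braf under vehicle it was 2538 CPM in library 2, 7452 in library 5 and 24450 in library 4, the highest of the 28 libraries, where Col3a1 alone made up 47.3% of it. Library 4 of Braf Smarcb1 knockout under CKI came next at 18290 CPM. Wild-type libraries lay between 1926 and 2486 CPM and Arid1a knockout libraries between 6291 and 8991, with no overlap. Braf Arid1a knockout under vehicle held 1486 to 2659 CPM.

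Per kilobase of exon (exon lengths from GENCODE M21 on GRCm38, another build than the mm9 of the files), Col3a1, which forms fibrils with type I in soft tissue, ranked first of the collagens in 7 of 10 groups. In wild type it reached 71.3 ± 29.7 CPM per kilobase (SD, n = 3), followed by Col4a1 at 44.3 ± 2.13, Col18a1 at 36.6 ± 14.3 and Col1a2 at 29.7 ± 4.55. The libraries of Col3a1 (38.6 to 96.7) spanned the mean of Col4a1, those of Col18a1 (23.8 to 52.0) spanned the means of Col4a1 and Col1a2, and those of Col4a1 (41.98 to 46.2) lay above all those of Col1a2 (24.6 to 33.4). The 3 exceptions were Braf Arid1a knockout under vehicle, led by Col9a1 at 106 ± 35.5, Braf Arid2 knockout under vehicle, led by Col6a1 at 169 ± 136 (n = 2), and Braf Arid2 knockout under CKI, led by Col18a1 at 117 ± 14.9 (n = 2). The heat map shows all 43 genes in CPM, not corrected for length.

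**Figure D1:**
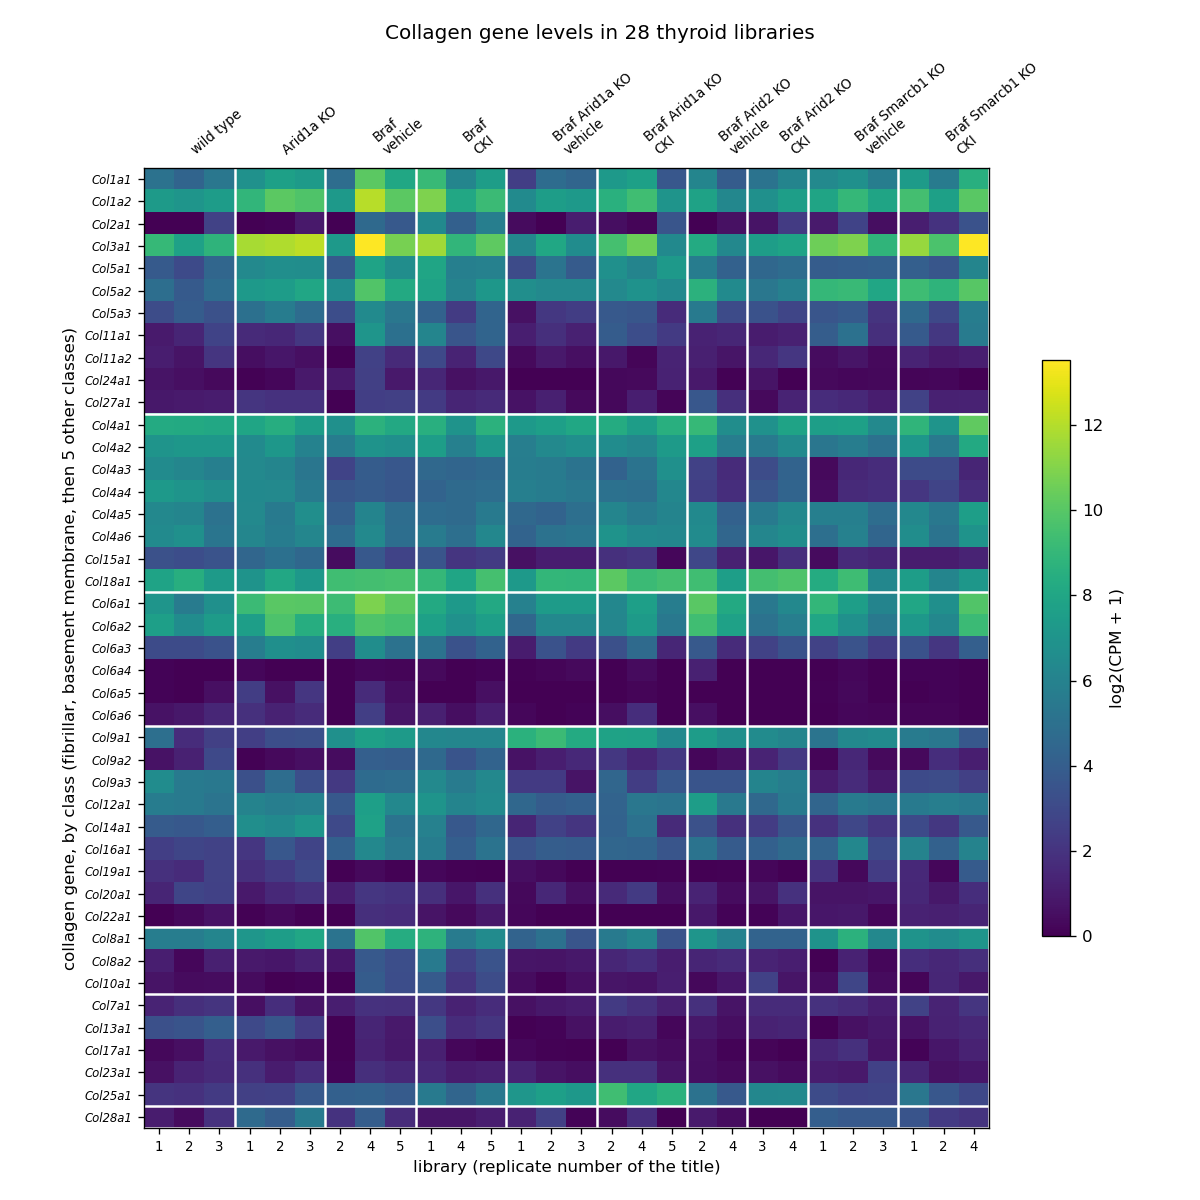
Level of each of the 43 collagen genes (rows, by class) in each of 28 libraries (columns, by group and replicate number), as log2(CPM + 1) on the colour scale. Averaged over the class, fibrillar genes are brightest in library 4 of Braf under vehicle (7.20). The highest library average within Braf under CKI is 6.46, and that within Braf Smarcb1 knockout under CKI is 5.96. In library 4 of the latter group Col3a1 alone makes up 64.7% of the collagen CPM. Col25a1 is bright across both Braf Arid1a knockout groups.

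Against wild type, more collagen genes were higher than lower in Braf under vehicle. Of 42 tested, 14 were higher and 4 lower at an adjusted p under 0.05 (20% of all genes tested were called in either direction, 9.84% higher and 10.1% lower). Among fibrillar genes 6 of 11 were higher and none lower, among basement membrane genes 2 of 8 were lower and none higher, and among the others 8 of 23 were higher and 2 lower. The median log2 fold change was 3.01 for the fibrillar genes, -0.65 for the basement membrane genes and 2.10 for the others, against -0.03 for all genes tested. The 12 called with the smallest p were Col4a4, Col5a2, Col9a1, Col6a1, Col25a1, Col16a1, Col4a3, Col1a2, Col5a1, Col19a1, Col1a1 and Col11a1. Much of this count rested on library 4 of Braf under vehicle: without it 5 genes were higher and 4 lower, 1 of them fibrillar. Of all genes tested 20.1% were then called in either direction, so the share of collagens called was near that of all genes. Leaving out library 2 of the same group gave 16 higher and 2 lower (13.7% of all genes called), and leaving out wild-type library 2 gave 10 called in all (12.4% of all genes).

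In the Arid1a knockout without mutant Braf, 7 collagen genes were higher and 2 lower than in wild type (18.6% of all genes were called, 6.84% higher and 11.8% lower), with medians of 1.77 for the fibrillar, -0.25 for the basement membrane and 0.37 for the other genes against -0.01 for all genes. The higher ones were Col5a2, Col6a1, Col28a1, Col6a3, Col5a1, Col14a1 and Col3a1, and the lower ones were Col9a2 and Col9a3, subunits of the fibril-associated type IX. The 3 libraries of each group did not overlap for any of these 9 genes. They did not overlap for 19 of the 42 collagens tested, against 38.6% of all genes. The count fell to 1 without wild-type library 2, 3 without wild-type library 1, 4 without wild-type library 3 or without Arid1a knockout library 1, and 2 without Arid1a knockout library 3. With these libraries left out, 7.5%, 15.3%, 13.3%, 8.49% and 5.88% of all genes were called, in that order.

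Under vehicle, each knockout was set against the same 3 Braf libraries, so the 3 comparisons share their control. Braf Arid1a knockout had 16 collagen genes lower and 3 higher than Braf (9.56% of all genes called, 5.31% lower and 4.25% higher). Fibrillar genes had a median of -4.01 with 7 of 11 lower, basement membrane genes a median of -0.49 with 2 of 8 higher, and the others a median of -3.10 with 9 lower and 1 higher of 23, against 0.00 for all genes. The 12 with the smallest p were Col25a1, Col8a1, Col14a1, Col24a1, Col6a2, Col4a4, Col1a1, Col5a3, Col1a2, Col6a1, Col12a1 and Col3a1. Without library 4 of Braf, 3 were lower and 2 higher. Without library 2 of Braf, 24 were lower and 2 higher, and leaving out library 1 or 3 of the knockout left 7 and 10 called. Of all genes 4.99%, 8.61%, 3.88% and 5.33% were then called, in that order.

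Braf Smarcb1 knockout had 11 collagen genes lower and 1 higher than Braf under vehicle, where 28.6% of all genes were called (14.2% lower and 14.4% higher). The lower ones were Col4a4, Col9a3, Col14a1, Col4a3, Col8a2, Col5a1, Col9a2, Col6a2, Col6a1, Col6a3 and Col1a2, and the higher one was Col19a1. Medians were -2.36 for the fibrillar, -1.12 for the basement membrane and -1.49 for the other genes, against 0.03 for all genes. The count was 6 without library 4 of Braf, 17 without library 2 of Braf, all of them lower, and 7 without library 3 of the knockout. Of all genes 22.5%, 23.4% and 27.1% were then called, in that order. The share of collagens called was below that of all genes in the first and the last. In Braf Arid2 knockout, with 2 libraries, edgeR's quasi-likelihood test called no collagen gene (3.61% of all genes called, 2.33% higher and 1.28% lower), and DESeq2 called 11 (11.1% of all genes). At an unadjusted p under 0.05 in edgeR's test there were 14, a threshold at which the share of all genes was not counted. The smallest p there belonged to Col1a2 (log2 fold change -3.63, SE 1.07, adjusted p = 0.0585), Col9a2 (-4.85, SE 1.44, adjusted p = 0.0587) and Col14a1 (-3.84, SE 1.16, adjusted p = 0.0623). Without library 2 of Braf 4 were called (1.92% of all genes), and without library 5 of Braf 1 was (4.6% of all genes).

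Markers of other cell types also differed between these groups. For scale, 9.84% of all genes were higher and 10.1% lower in Braf than in wild type, and 6.84% and 11.8% in Arid1a knockout. Against Braf under vehicle, 5.31% of all genes were lower and 4.25% higher in Braf Arid1a knockout. The shares lower were 1.28% in Braf Arid2 knockout and 14.2% in Braf Smarcb1 knockout. Of 12 fibroblast markers that are not collagens (among them Pdgfra, Dpt and Thy1), 11 were tested, and 5 were higher in Braf under vehicle than in wild type and none lower. Their summed level was 237 to 351 CPM in wild type, 1060 to 1573 in Arid1a knockout, 303 to 2170 in Braf under vehicle, 214 to 366 in Braf Arid1a knockout, 357 to 801 in Braf Arid2 knockout and 152 to 241 in Braf Smarcb1 knockout, the last 3 under vehicle. Against Braf under vehicle 7 of 11 were lower and 1 higher in Braf Arid1a knockout, 5 were lower in Braf Arid2 knockout and 10 were lower in Braf Smarcb1 knockout. In Arid1a knockout 4 of 11 were higher than in wild type. All 7 leukocyte markers were higher there too, with sums of 2203 to 3853 CPM against 349 to 582. Smooth muscle and pericyte markers summed to 866 to 1524 CPM in wild type, 1243 to 1678 in Arid1a knockout, 155 to 1251 in Braf, 95.98 to 164 in Braf Arid1a knockout, 80.8 to 182 in Braf Arid2 knockout and 224 to 305 in Braf Smarcb1 knockout, the Braf groups under vehicle. Of these 10 markers 8, 1 and 7 were lower in the 3 knockouts than in Braf. In Arid1a knockout against wild type, skeletal muscle markers summed to 134 to 397 CPM against 11.4 to 224, none called, and C cell and parathyroid markers to 5048 to 13030 CPM against 17990 to 36800, with 4 of 8 lower. Tcf21 was at 0 in both Braf Arid2 knockout libraries under vehicle, and no other fibroblast marker was at 0 throughout a group. The part of these cell types in the collagen differences was not tested, beyond a fit with the fibroblast marker level alone as a covariate.

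The mean log2(CPM + 1) of the fibroblast markers was added as a covariate to the same fit. In Braf against wild type the called collagens went from 18 to 10, with 8 of the original calls kept (Col5a2, Col4a3, Col4a4, Col6a1, Col9a1, Col19a1, Col13a1 and Col25a1), and the fibrillar median went from 3.01 to -0.20. In Braf Arid1a knockout against Braf, 1 of 19 calls was kept, that of Col25a1, and the fibrillar median went from -4.01 to 0.40. In Braf Smarcb1 knockout against Braf, the calls of Col4a4 and Col19a1 were kept, 6 genes were newly called higher (Col1a1, Col3a1, Col5a2, Col15a1, Col8a1 and Col28a1), Col1a2 turned from lower (-2.49) to higher (2.63), and the fibrillar median went from -2.36 to 2.63. None of the 9 calls in Arid1a knockout against wild type was kept (fibrillar median 1.77 without and -0.80 with the covariate). With the covariate 20.4%, 2.1%, 12% and 1.79% of all genes were called in these comparisons, in the order given. The marker level itself differs between the groups, so its part and that of the genotype cannot be told apart by this fit.

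**Figure D2:**
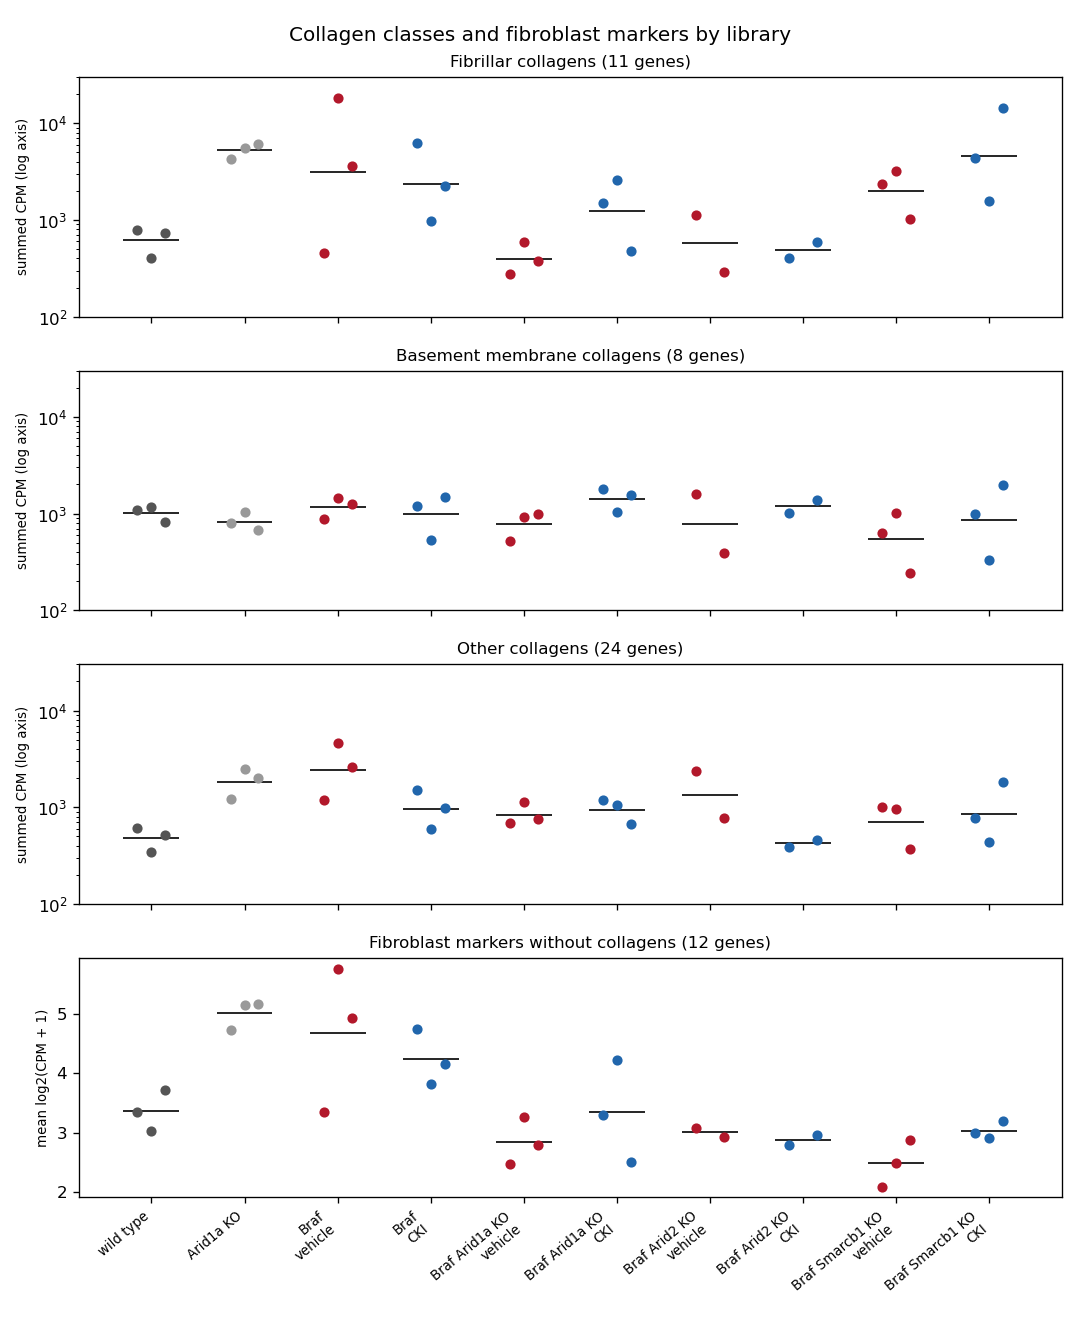
Summed CPM of the 3 collagen classes on log axes (11, 8 and 24 genes) and mean log2(CPM + 1) of 12 fibroblast markers in each library, by group (dark grey wild type, light grey Arid1a knockout, red vehicle, blue CKI; the line is the geometric mean of the sums or the mean of the marker level). Fibrillar sums run from 453 to 18380 CPM within Braf under vehicle, whose marker level runs from 3.35 to 5.76, while the basement membrane sums of that group run from 884 to 1459.

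**Figure D3:**
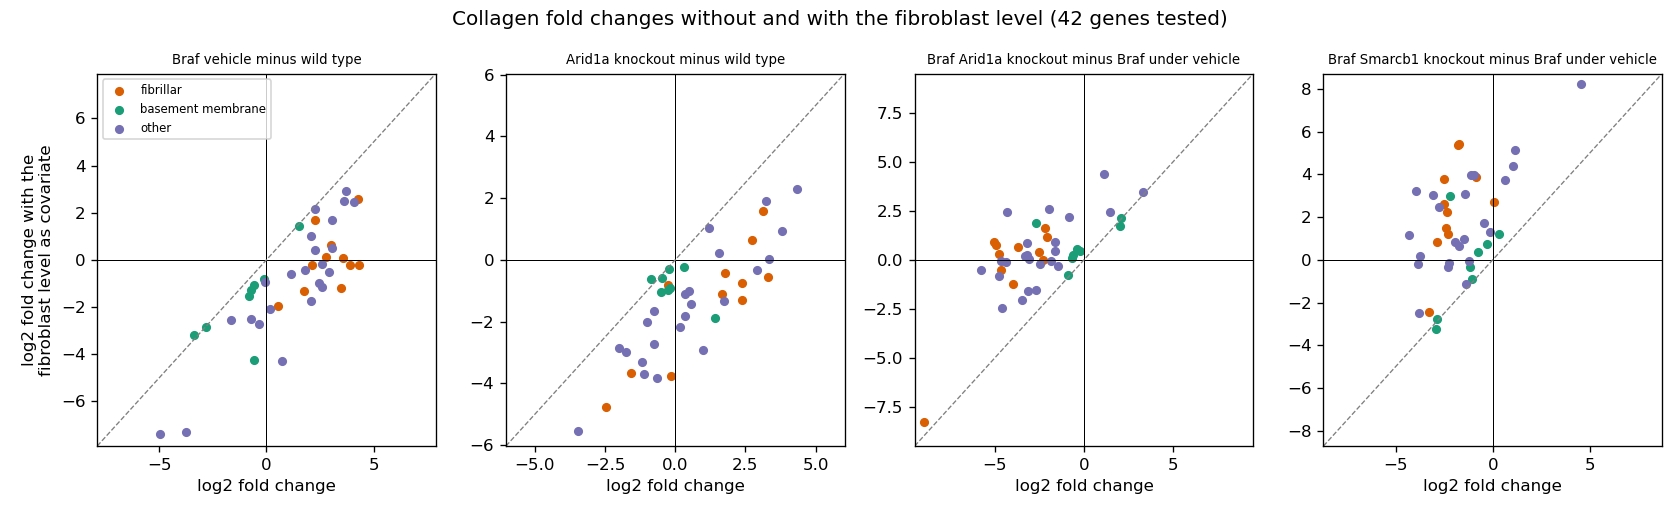
Log2 fold change of each of 42 collagen genes without (x axis) and with (y axis) the fibroblast marker level as a covariate, in 4 comparisons, coloured by class; the dashed line marks equal values. In Braf under vehicle against wild type the fibrillar genes drop from a median of 3.01 to -0.20, while Col4a3 and Col4a4 stay near the dashed line at the lower left.

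Among the fibrillar chains, Col3a1 had the highest level per kilobase in wild type and in most other groups, but not in Braf Arid1a or Braf Arid2 knockout under vehicle, where it ranked sixth of all collagens. Col3a1 stood at 538, 215 and 438 CPM in wild-type libraries 1 to 3, at 3414, 3835 and 4672 in Arid1a knockout, and at 156, 11560 and 1706 in Braf under vehicle (libraries 2, 4 and 5). Under vehicle it stood at 73.9, 262 and 94.8 CPM in Braf Arid1a knockout, 306 and 79.2 in Braf Arid2 knockout, and 1478, 1946 and 454 in Braf Smarcb1 knockout. The Arid1a knockout libraries were all above the wild-type ones, whereas the Braf libraries reached from below the lowest wild-type library to the highest level seen under vehicle. Col3a1 was higher than in wild type in Arid1a knockout (log2 fold change 3.32, SE 1.17, adjusted p = 0.0496) and in Braf (3.50, SE 1.18, adjusted p = 0.0387), and lower in Braf Arid1a knockout than in Braf (-4.96, SE 1.26, adjusted p = 0.0158). None of these 3 calls held throughout: the first was lost without any of its 6 libraries (3.06 to 3.65), the second without library 4 of Braf or any wild-type library (1.23 to 4.05), and the third without library 4 of Braf or library 1 or 3 of the knockout (-5.73 to -2.71).

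The 2 chains of type I, the main collagen of bone, skin and tendon, followed the same libraries. Col1a2 stood at 166, 132 and 179 CPM in wild type, 483, 1114 and 886 in Arid1a knockout, 152, 4309 and 1125 in Braf under vehicle, and 87.7, 183 and 156 in Braf Arid1a knockout under vehicle. Col1a1 stood at 33.7, 19.9 and 40.6 CPM in wild type, 115, 208 and 164 in Arid1a knockout, 27.9, 1110 and 265 in Braf, and 4.76, 26.6 and 20.6 in Braf Arid1a knockout. In both chains library 2 of Braf lay within the wild-type range and library 4 far above it, and the Braf Arid1a knockout libraries overlapped Braf in Col1a2 but not in Col1a1. Both were called higher in Braf than in wild type (Col1a2 3.55, SE 0.90, adjusted p = 0.00771 and Col1a1 3.90, SE 1.11, adjusted p = 0.0157) and lower in Braf Arid1a knockout than in Braf (Col1a2 -3.71, SE 0.91, adjusted p = 0.0128 and Col1a1 -4.76, SE 1.16, adjusted p = 0.0121), calls that were lost without library 4 of Braf, where the changes were smallest (2.01 and 2.22 against wild type, -2.18 and -3.10 in the knockout). The calls in the knockout were also lost without its library 1, and that of Col1a1 against wild type without wild-type library 2. In Braf Smarcb1 knockout Col1a2 stood at 237, 516 and 240 CPM and was called lower than in Braf (-2.49, SE 0.86, adjusted p = 0.0337), a call that was lost without library 4 of Braf (-0.95) or library 1 or 3 of the knockout, while Col1a1, at 82.3, 108 and 52.8 CPM, was not called (-2.53, SE 1.04, adjusted p = 0.0724). In Braf Arid2 knockout under vehicle Col1a2 stood at 225 and 76.1 CPM and Col1a1 at 71.4 and 14.6.

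Col5a2, a type V chain that joins type I fibrils and sets their width, departed from type I. It stood at 28.4, 13.5 and 26.3 CPM in wild type, 154, 180 and 259 in Arid1a knockout and 95.3, 912 and 293 in Braf under vehicle. Under vehicle it stood at 102, 80.6 and 81.7 CPM in Braf Arid1a knockout, 419 and 87.9 in Braf Arid2 knockout, and 516, 574 and 252 in Braf Smarcb1 knockout. Every library of the mutant groups was above every wild-type library. It rose by 4.25 (SE 0.68, adjusted p = 0.000138) in Braf and by 3.12 (SE 0.65, adjusted p = 0.00357) in Arid1a knockout against wild type on the log2 scale, and both calls were kept without any single library. In Braf Arid1a knockout it was lower than in Braf (-2.30, SE 0.63, adjusted p = 0.0235), a call lost without library 4 of Braf or any library of the knockout (-2.70 to -1.16). The ratio of Col5a2 to Col1a2 counts was 0.102 to 0.171 in wild type, 0.161 to 0.319 in Arid1a knockout, 0.212 to 0.629 in Braf, 0.439 to 1.16 in Braf Arid1a knockout, 1.16 to 1.86 in Braf Arid2 knockout and 1.05 to 2.17 in Braf Smarcb1 knockout, the last 4 under vehicle. Between wild type and every Braf group under vehicle these ratios did not overlap.

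Col24a1, a minor fibrillar chain, had no count in any of the 3 libraries of Braf Arid1a knockout under vehicle, against 177 counts in Braf. Its level in Braf was 0.917, 4.92 and 0.904 CPM, so it was at least 72.3-fold lower in the knockout (3 counts over the group as the floor, counting error only), and at least 27-fold lower without library 4 of Braf. The change was called (adjusted p = 0.00736, edgeR's quasi-likelihood test) and kept without any single library, and all 3 knockout libraries lay below all Braf libraries. Col5a1, the other main type V chain, was 7.28 to 21.3 CPM in wild type, 82.1 to 102 in Arid1a knockout (log2 fold change 2.74, SE 0.83, adjusted p = 0.0241) and 12.9 to 226 in Braf (3.01, SE 0.84, adjusted p = 0.0139). Leaving out 4 of 6 libraries in turn lost the first call, and leaving out library 4 of Braf or wild-type library 2 lost the second. Col11a1, a chain of the cartilage fibril that also occurs in stroma of tumours, stood at 0.942, 1.62 and 5.60 CPM in wild type and at 0.459, 134 and 31.2 in Braf, a call (4.34, SE 1.26, adjusted p = 0.0173) lost without library 4 of Braf or wild-type library 1 or 2. Col5a3 was 0.508 to 4.40 CPM in Braf Arid1a knockout and 8.05 to 88.3 in Braf (-4.01, SE 0.98, adjusted p = 0.0128, lost without library 4 of Braf or library 1 of the knockout). Col5a1 in Braf Smarcb1 knockout was 14.3 to 17.0 CPM, lower than in Braf (-2.85, SE 0.83, adjusted p = 0.0136, lost without library 4 of Braf), and in Braf Arid1a knockout Col11a1 was 1.21 to 2.48 CPM (-5.05, SE 1.30, adjusted p = 0.0176, lost without library 4 of Braf or any library of the knockout). Col2a1, the main cartilage collagen, and Col11a2 and Col27a1 were called in none of the 12 comparisons, and Col2a1 ranged from 0 to 83.8 CPM with its highest level in library 1 of Braf under CKI.

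The basement membrane chains split by gene pair. The type IV genes lie head to head in pairs, each pair sharing the stretch between its starts: Col4a1 with Col4a2 on chromosome 8, Col4a3 with Col4a4 on chromosome 1 and Col4a5 with Col4a6 on the X chromosome. Col4a1 and Col4a2 chains form the network found in almost all basement membranes, and Col4a3 and Col4a4 chains form with Col4a5 the network known from the kidney filter, lung and inner ear. The first exons of Col4a1 and Col4a2 overlap by 22 bases, so a few of their reads may be shared if strand was not kept.

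Col4a1 and Col4a2 were called in none of the comparisons. Col4a1 was 293 ± 14.1 CPM (SD, n = 3) in wild type, 258 ± 82.1 in Arid1a knockout, 273 ± 157 in Braf, 208 ± 55.9 in Braf Arid1a knockout, 319 ± 312 (n = 2) in Braf Arid2 knockout and 160 ± 67.7 in Braf Smarcb1 knockout, the Braf groups under vehicle. Col4a2 was 137 ± 8.79, 97.5 ± 40.3, 92.6 ± 36.8, 80.2 ± 24.8, 127 ± 106 and 41.4 ± 10.5 CPM in the same order. The 3 libraries of Col4a2 in Braf, in Braf Arid1a knockout and in Braf Smarcb1 knockout, at 50.9 to 120.5, 55.2 to 105 and 32.3 to 52.9 CPM, all lay below those of wild type, at 127 to 143, and no knockout with mutant Braf was tested against wild type. The ratio of Col4a1 to Col4a2 counts stayed between 1.87 and 4.99 in all 28 libraries.

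Col4a3 and Col4a4 behaved otherwise. Col4a4 stood at 157, 126 and 100 CPM in wild type, 83.2, 80.7 and 47.3 in Arid1a knockout, 11.2, 13.6 and 11.4 in Braf, 55.7, 49.6 and 41.1 in Braf Arid1a knockout, 4.70 and 2.39 in Braf Arid2 knockout, and 0.386, 2.06 and 2.38 in Braf Smarcb1 knockout, the Braf groups under vehicle. Col4a3 stood at 91.8, 73.0 and 56.7 CPM, 81.2, 69.5 and 38.4, 5.60, 14.6 and 11.6, 51.8, 48.3 and 35.2, 5.07 and 2.12, and 0.267, 1.83 and 2.35 in the same order. In both genes wild type was highest, Braf Arid1a knockout lay between wild type and Braf, and Braf Arid2 and Braf Smarcb1 knockout lay below Braf, with no overlap between Braf and its neighbours on either side. Library 4 of Braf, with the highest fibrillar sum, held 13.6 CPM of Col4a4 and 14.6 of Col4a3. Library 2, with the lowest sum in Braf under vehicle, held 11.2 and 5.60.

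Against wild type Col4a4 fell by 3.40 on the log2 scale in Braf (SE 0.51, adjusted p = 6.33e-05) and Col4a3 fell by 2.80 (SE 0.68, adjusted p = 0.00572). Against Braf, Col4a4 was higher in Braf Arid1a knockout (2.02, SE 0.48, adjusted p = 0.0111) and lower in Braf Smarcb1 knockout (-2.91, SE 0.51, adjusted p = 0.000302). Col4a3 was higher in the first (2.09, SE 0.66, adjusted p = 0.0489) and lower in the second (-2.85, SE 0.70, adjusted p = 0.00444). All these calls were kept without any single library except that of Col4a3 in Braf Arid1a knockout, which was lost without any of its 6 libraries (1.85 to 2.36). In Braf Arid2 knockout the change of Col4a4 was -1.76 (SE 0.56, adjusted p = 0.0738) and was not called. In Arid1a knockout without mutant Braf neither gene was called. The ratio of Col4a3 to Col4a1 counts was 0.204 to 0.300 in wild type, 0.0346 to 0.0518 in Braf, 0.131 to 0.324 in Braf Arid1a knockout and 0.00137 to 0.0286 in Braf Smarcb1 knockout. Endothelial markers, whose cells rest on a basement membrane of their own, also differed. Of 10, 8 were lower in Braf than in wild type (10.1% of all genes). Of the same 10, 7 were lower in Braf Arid1a knockout than in Braf (5.31% of all genes). These markers summed to 1773 to 2557 CPM in wild type, 28.1 to 597 in Braf and 24.9 to 43.6 in Braf Arid1a knockout. None of them was at 0 throughout a group. Their part in the levels of the type IV genes was not tested.

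The stretch between the starts of Col4a4 and Col4a3 is shown because both genes were called in the same direction in each of 3 comparisons and share it. It spans 126 bases, at chr1:82586850-82586975 (GRCm38.p6, RefSeq promoter table), lies outside both transcripts and is given on the strand of Col4a4, in lower case throughout because none of the motifs searched was found.
Col4a4 to Col4a3: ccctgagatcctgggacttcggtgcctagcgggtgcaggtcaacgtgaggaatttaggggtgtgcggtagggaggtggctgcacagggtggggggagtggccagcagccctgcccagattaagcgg
The motifs searched on both strands were the CCAAT box, the GC box spelled GGGCGG, the AP-1 site spelled TGANTCA and the TATA box spelled TATAAA, and 22%, 27%, 3.62% and 6.62% of 32851 promoters hold them in a window of that length. Their absence says only that these letters are not in this window.

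**Figure D4:**
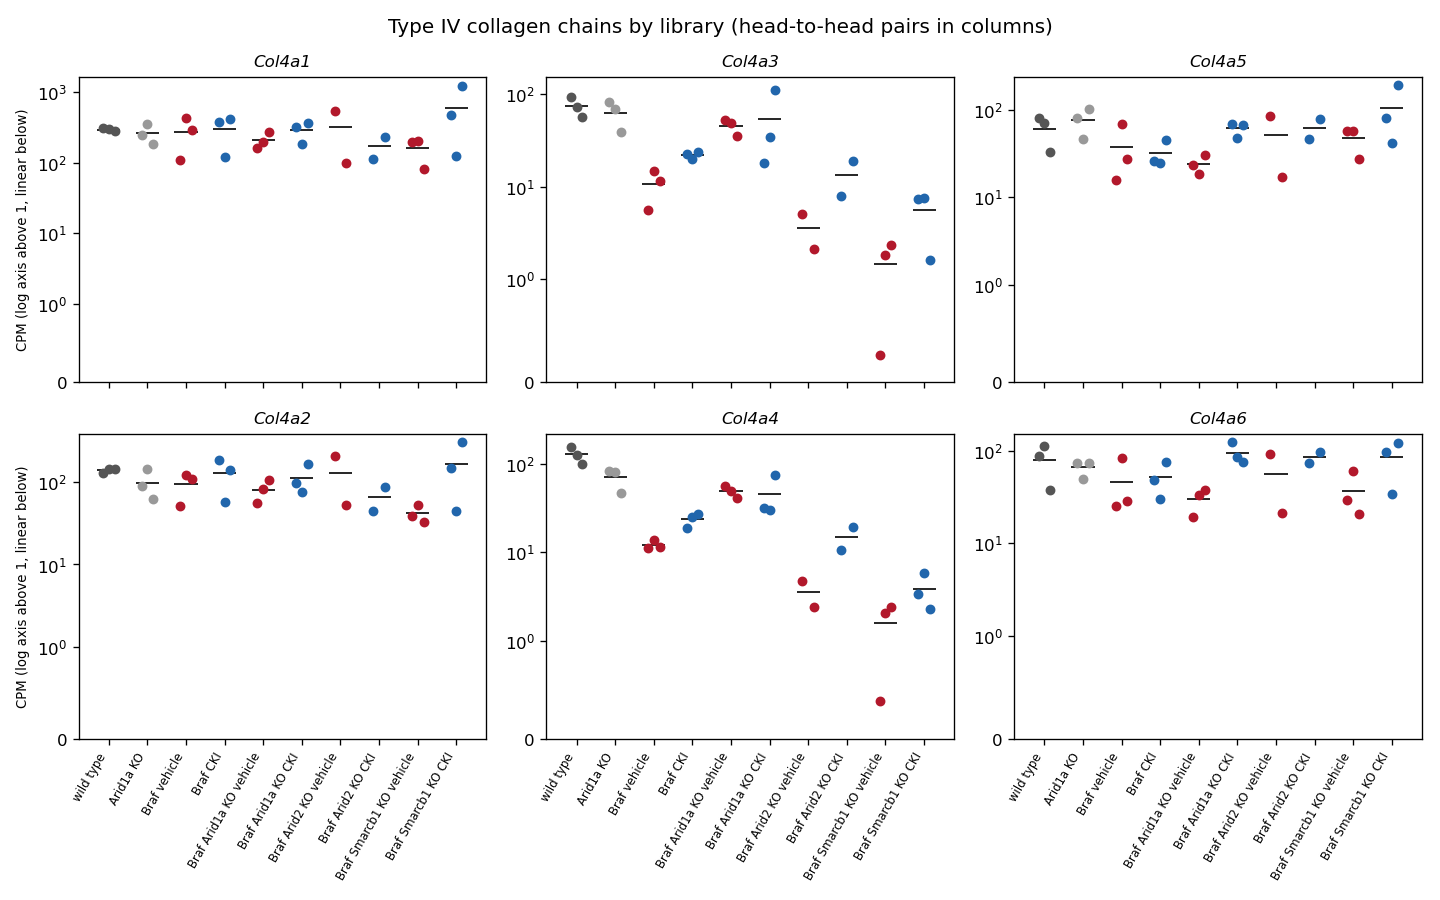
CPM of the 6 type IV chains in each library, with genes of a pair in 1 column (y axis logarithmic above 1 and linear below; red vehicle, blue CKI, greys untreated; the line is the group mean). Col4a3 and Col4a4 step down from wild type to Braf vehicle and again to the Arid2 and Smarcb1 knockouts, with Braf Arid1a knockout in between, while the other 4 chains overlap between most groups.

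The third pair showed no call. Col4a5 was 60.9 ± 24.7 CPM (SD, n = 3) in wild type and 37.4 ± 27.9 in Braf under vehicle, and Col4a6, which with Col4a5 serves the basement membrane of smooth muscle, was 79.1 ± 37.9 and 45.4 ± 31.9. Nor were the 2 basement membrane collagens outside type IV called in any comparison. Col18a1, the source of the fragment endostatin, stood at 230, 353 and 162 CPM in wild type and 667, 727 and 767 in Braf, without overlap, and its change missed the threshold (1.53, SE 0.60, adjusted p = 0.0754). Col15a1, of the same family, stood at 8.27 to 10.02 CPM in wild type, 20.8 to 31.0 in Arid1a knockout and 0.357 to 12.2 in Braf.

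Type VI chains form beaded filaments around cells, and Col6a1 and Col6a2 had the highest levels of the type. Col6a1 stood at 131, 48.7 and 109 CPM in wild type, 591, 1086 and 1028 in Arid1a knockout and 617, 1854 and 1102 in Braf under vehicle. Under vehicle it stood at 61.0, 170 and 171 CPM in Braf Arid1a knockout, 1087 and 296 in Braf Arid2 knockout, and 499, 191 and 68.2 in Braf Smarcb1 knockout. All libraries of Arid1a knockout and of Braf were above all those of wild type, and those of Braf Arid1a and Braf Smarcb1 knockout were below all those of Braf. Col6a1 rose against wild type by 3.63 in Braf (SE 0.80, adjusted p = 0.00266, kept without any single library) and by 3.23 in Arid1a knockout (SE 0.79, adjusted p = 0.00746, lost without wild-type library 2). Against Braf it was lower in Braf Arid1a knockout (-3.15, SE 0.79, adjusted p = 0.0141, lost without library 4 of Braf or library 1 of the knockout, -3.39 to -2.71) and in Braf Smarcb1 knockout (-2.23, SE 0.76, adjusted p = 0.0301, lost without library 4 of Braf or library 2 or 3 of the knockout, -3.21 to -1.79).

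Col6a2 stood at 202, 93.9 and 174 CPM in wild type and 372, 889 and 753 in Braf, a change that missed the threshold (2.10, SE 0.76, adjusted p = 0.0528). It stood at 21.6, 78.9 and 79.3 CPM in Braf Arid1a knockout, all below Braf (-3.48, SE 0.80, adjusted p = 0.00902, lost without library 1 of the knockout, -3.74 to -3.12). The ratio of Col6a1 to Col6a2 counts was 0.519 to 0.651 in wild type and at least 1.05 in every other library. Col6a3, whose long chain completes the filament, stood at 7.68, 7.42 and 9.57 CPM in wild type and 51.9, 104 and 93.4 in Arid1a knockout (3.34, SE 0.97, adjusted p = 0.0196, lost without Arid1a knockout library 3 or any wild-type library, 3.18 to 3.62). Against Braf, at 4.74 to 98.2 CPM, Col6a3 was lower in Braf Arid1a knockout (-3.23, SE 0.97, adjusted p = 0.0384) and in Braf Smarcb1 knockout (-2.78, SE 0.95, adjusted p = 0.0318), both lost without library 4 of Braf, the first also without library 1 or 3 of the knockout (-4.18 to -2.01) and the second without any library of the knockout (-3.21 to -1.54). Col6a2 was also lower in Braf Smarcb1 knockout (-2.31, SE 0.76, adjusted p = 0.0265, lost without library 4 of Braf or library 2 or 3 of the knockout). Col6a5 and Col6a6 were called in none of the comparisons, at up to 4.57 and 4.63 CPM. Col6a4 had 0 to 37 counts per group and was not tested.

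Among the collagens that attach to fibrils, Col9a1 was called higher in 1 comparison, and the other 2 chains of type IX, which is best known from cartilage, were called lower in others. Col9a1 stood at 30.0, 2.32 and 4.93 CPM in wild type, 4.79, 8.68 and 8.70 in Arid1a knockout and 108, 208 and 164 in Braf under vehicle. Under vehicle it stood at 403, 595 and 310 CPM in Braf Arid1a knockout, 178 and 106 in Braf Arid2 knockout, and 35.9, 77.8 and 91.8 in Braf Smarcb1 knockout. Under vehicle every library with mutant Braf was above every library without it, and Braf Arid1a knockout was highest. Col9a1 rose by 3.69 in Braf against wild type (SE 0.70, adjusted p = 0.000663, kept without any single library), whereas the rise from Braf to Braf Arid1a knockout missed the threshold (1.44, SE 0.64, adjusted p = 0.159). Col9a3 stood at 93.0, 44.5 and 42.2 CPM in wild type, 8.76, 27.9 and 8.53 in Arid1a knockout (-1.99, SE 0.67, adjusted p = 0.0418, lost without 5 of 6 libraries in turn, -2.76 to -1.48) and 3.82, 25.1 and 27.5 in Braf. Against Braf, Col9a3 was lower in Braf Smarcb1 knockout, at 1.01, 2.16 and 0.843 CPM (-3.81, SE 0.74, adjusted p = 0.000733, kept without any single library), and in Braf Arid1a knockout, at 3.997, 3.991 and 0.667 CPM (-2.71, SE 0.70, adjusted p = 0.0175, lost without library 4 or 5 of Braf or library 3 of the knockout, -3.13 to -2.24). Col9a2 was 0.0749 to 0.460 CPM in Arid1a knockout against 0.558 to 7.04 in wild type (-3.46, SE 1.17, adjusted p = 0.0413, lost without 5 of 6 libraries in turn, -4.02 to -1.82). Col9a2 in Braf Smarcb1 knockout was 0.148 to 1.80 CPM against 0.357 to 16.3 in Braf (-3.83, SE 1.13, adjusted p = 0.0145, lost without library 1 or 3 of the knockout). Of 10 cartilage markers that are not collagens, 1 was higher in Braf than in wild type and none lower (9.84% and 10.1% of all genes). Their sums were 59.5 to 329 CPM in Braf and 84.3 to 168 in wild type. Of the same markers 2 were lower in Braf Arid1a knockout than in Braf (53.2 to 79.2 CPM), against 5.31% of all genes. In Braf Smarcb1 knockout 4 were lower and 1 higher (232 to 734 CPM), against 14.2% and 14.4% of all genes. Matn1 was at 0 in all Arid1a knockout libraries, where the markers summed to 94.7 to 109 CPM. Their part in the levels of type IX was not tested.

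Col14a1, which binds fibrils in dense connective tissue, followed the fibrillar genes. It stood at 13.96, 12.4 and 15.6 CPM in wild type, 102, 85.0 and 133 in Arid1a knockout, 7.03, 214 and 35.1 in Braf, 1.62, 5.13 and 3.18 in Braf Arid1a knockout, and 2.88, 6.47 and 3.41 in Braf Smarcb1 knockout, the Braf groups under vehicle. Both knockouts lay below every Braf library, and Arid1a knockout above every wild-type one. Against wild type it was called higher in Arid1a knockout (2.93, SE 0.94, adjusted p = 0.0324, lost when any of 5 libraries was left out) and in Braf (2.61, SE 0.93, adjusted p = 0.0494, lost without library 4 of Braf, where it was 0.60, or any wild-type library). Its changes against Braf were -4.69 (SE 1.02, adjusted p = 0.00615) in Braf Arid1a knockout and -4.33 (SE 1.004, adjusted p = 0.00292) in Braf Smarcb1 knockout, each lost only without library 4 of Braf (-2.69 and -2.32). Col16a1, at 4.75, 6.17 and 5.44 CPM in wild type, was at 16.8, 77.3 and 43.1 in Braf and rose by 3.07 (SE 0.72, adjusted p = 0.00456, kept without any single library). Col12a1 was 14.1 to 21.9 CPM in Braf Arid1a knockout and 12.4 to 201 in Braf (-2.47, SE 0.62, adjusted p = 0.0153, lost without library 4 of Braf or library 2 or 3 of the knockout, -2.92 to -1.38).

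Col19a1, a collagen of basement membrane zones, was at most 0.412 CPM in every library of 6 groups and had a mean of 2.53 to 5.34 CPM in the other 4, where Braf Smarcb1 knockout held single libraries down to 0.186. It stood at 2.72, 2.21 and 5.41 CPM in wild type, 2.58, 3.84 and 6.78 in Arid1a knockout, and 2.995, 0.229 and 4.36 in Braf Smarcb1 knockout under vehicle. In Braf under vehicle it stood at 0, 0.253 and 0.0393 CPM. It fell by 4.99 in Braf against wild type (SE 1.41, adjusted p = 0.0154, -7.03 to -4.51 with a library left out) and was higher in Braf Smarcb1 knockout than in Braf (4.54, SE 1.40, adjusted p = 0.0181, 3.90 to 6.57), and both calls were lost without library 2 or without library 5 of Braf. Library 2 of the knockout, at 0.229 CPM, lay below library 4 of Braf, so the groups overlap. Col20a1 and Col22a1 were called nowhere and reached 6.10 and 2.53 CPM.

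The short-chain collagens form hexagonal networks, as in the cornea and around vessels. Col8a1 stood at 52.3, 51.6 and 71.2 CPM in wild type, 34.8, 942 and 328 in Braf under vehicle and 18.8, 31.7 and 10.98 in Braf Arid1a knockout under vehicle, all 3 below Braf (-4.41, SE 0.95, adjusted p = 0.00582, kept without any single library). Its rise in Braf against wild type (2.90, SE 0.89, adjusted p = 0.0239) was lost without library 4 of Braf or any wild-type library (1.64 to 3.42). Col8a2 was 0.764 to 12.7 CPM in Braf and 0 to 1.44 in Braf Smarcb1 knockout (-3.75, SE 1.05, adjusted p = 0.0106, kept without any single library). Col8a2 was also called higher in Braf than in wild type (3.04, SE 1.01, adjusted p = 0.0369) and lower in Braf Arid1a knockout than in Braf (-3.33, SE 1.03, adjusted p = 0.0429), calls lost when any of 5 libraries was left out. Col10a1, a collagen of growth plate cartilage, reached 14.2 CPM in library 4 of Braf and was at 0 in library 2, and both of its calls, higher in Braf than in wild type and lower in Braf Arid1a knockout than in Braf, were lost when any of 5 libraries was left out.

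Of the anchoring and transmembrane collagens, Col25a1 kept its calls without any single library. Its protein is a membrane collagen known from amyloid plaques and from the growth of motor axons to muscle. Col25a1 stood at 3.14, 2.87 and 3.97 CPM in wild type, 4.87, 5.18 and 12.8 in Arid1a knockout and 16.8, 17.9 and 14 in Braf under vehicle. Under vehicle it stood at 136, 199 and 146 CPM in Braf Arid1a knockout, 33.8 and 12.6 in Braf Arid2 knockout, and 7.53, 5.49 and 6.09 in Braf Smarcb1 knockout. All Braf Arid1a knockout libraries lay far above all others under vehicle, and Braf lay above wild type and above Braf Smarcb1 knockout without overlap. Col25a1 rose by 3.30 from Braf to Braf Arid1a knockout (SE 0.55, adjusted p = 0.000867, 3.12 to 3.39 with a library left out) and by 2.29 from wild type to Braf (SE 0.54, adjusted p = 0.00437, 2.21 to 2.43). Its change in Braf Smarcb1 knockout was -1.35 (SE 0.52, adjusted p = 0.0544), and in Arid1a knockout against wild type it was 1.19 (SE 0.52, adjusted p = 0.117). Both calls were also kept with the fibroblast markers as a covariate.

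The 250 bases before the start of Col25a1, at chr3:130180595-130180844 on the plus strand (GRCm38.p6, RefSeq promoter table), are shown because the gene separated Braf Arid1a knockout from every other group under vehicle. Capitals mark the CCAAT box and the GC box (GGGCGG) on either strand.
Col25a1: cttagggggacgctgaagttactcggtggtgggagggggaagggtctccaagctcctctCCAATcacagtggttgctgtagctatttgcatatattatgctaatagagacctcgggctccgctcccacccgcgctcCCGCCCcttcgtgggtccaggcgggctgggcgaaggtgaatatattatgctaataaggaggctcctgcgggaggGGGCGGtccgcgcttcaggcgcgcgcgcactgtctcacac
This window held 1 CCAAT box and 2 GC boxes, and neither the AP-1 site nor the TATA box, which 6.75% and 12.4% of promoters hold. Of 32851 promoters, 33.8% and 32.7% hold the CCAAT box and the GC box in a window of that length, and a match is only a match of letters.

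**Figure D5:**
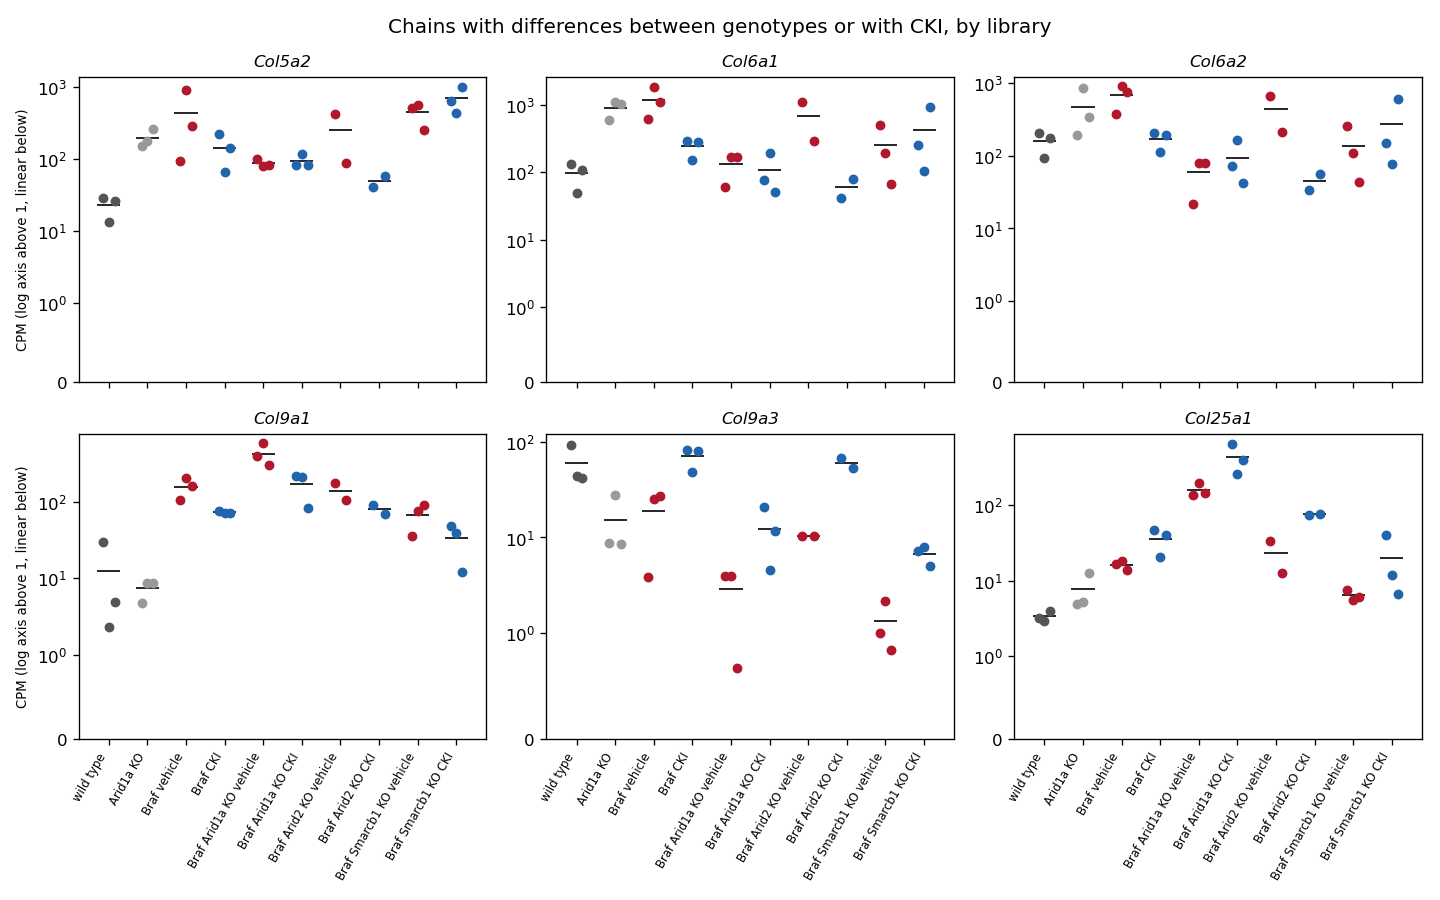
CPM of 6 chains of types V, VI, IX and XXV in each library (y axis logarithmic above 1 and linear below; red vehicle, blue CKI, greys untreated; the line is the group mean). Col25a1 is highest in the Braf Arid1a knockout groups, Col6a1 and Col6a2 are lower under CKI in Braf and Braf Arid2 knockout, and Col9a3 is higher under CKI in all 4 Braf genotypes.

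The other members of this class were low. Col13a1 stood at 8.73, 10.3 and 15.9 CPM in wild type and at 0, 1.63 and 0.904 in Braf under vehicle, and its fall of 3.75 (SE 1.12, adjusted p = 0.0210) was lost without library 2 or 5 of Braf or wild-type library 3 (-4.62 to -3.21). Col7a1, which anchors the epidermal basement membrane, had group means of 2.39 CPM in wild type, 1.18 in Arid1a knockout, 2.25 and 2.46 in Braf under vehicle and CKI, 0.819 and 2.63 in Braf Arid1a knockout, 1.69 and 2.16 in Braf Arid2 knockout, and 2.06 and 3.39 in Braf Smarcb1 knockout. Col17a1, a collagen of hemidesmosomes, had group means of 0.988, 0.583, 0.758, 0.489, 0.0766, 0.270, 0.295, 0.0769, 1.72 and 0.783 CPM in the same order. Neither of them nor Col23a1 was called in any comparison. Col28a1, a collagen that fits none of these classes and is known from Schwann cells, stood at 1.05, 0.294 and 2.85 CPM in wild type and at 24.2, 14.8 and 46.1 in Arid1a knockout, a rise of 4.33 (SE 1.20, adjusted p = 0.0158, lost without Arid1a knockout library 3 or wild-type library 1 or 2, 3.85 to 5.39). Of 10 Schwann cell markers, 1 was higher in Arid1a knockout than in wild type and none lower (6.84% and 11.8% of all genes). Their sums were 260 to 306 CPM in Arid1a knockout and 319 to 387 CPM in wild type.

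Few collagen genes were called with the drug, and in the knockouts with mutant Braf few of all genes were called either. CKI against vehicle gave 1 called gene in each of Braf, Braf Arid1a knockout and Braf Arid2 knockout, and none in Braf Smarcb1 knockout, each out of 42. Of all genes tested, 13% were called in Braf (7.96% higher and 5.01% lower), 4.51% in Braf Arid1a knockout (2.51% and 2%), 3.37% in Braf Arid2 knockout (1.41% and 1.96%) and 3.85% in Braf Smarcb1 knockout (1.8% and 2.05%). In the last, DESeq2 called 5 collagen genes, against 8.52% of all genes, and 9 had an unadjusted p under 0.05 in edgeR's test. The share of all genes at that threshold was not counted. The median change of the collagens was -0.40 in Braf, 1.28 in Braf Arid1a knockout, 0.00 in Braf Arid2 knockout and 0.93 in Braf Smarcb1 knockout, against -0.01, 0.03, -0.03 and 0.04 for all genes. Most of these medians moved with single libraries: that in Braf was 0.57 without library 4 of vehicle and 0.53 with the fibroblast covariate, that in Braf Arid2 knockout ran from -0.59 to 1.10 with a library left out, and that in Braf Smarcb1 knockout was 0.35 without treated library 4, 0.58 without vehicle library 3 and 0.04 with the covariate. With the covariate the median in Braf Arid1a knockout was 0.50. In Braf Arid1a knockout 35 of 42 had a positive change, with a fibrillar median of 2.41, and in Braf Smarcb1 knockout 31 of 42 did. Thyroid follicular markers rose under the drug, 12 of 13 in Braf, 11 in Braf Arid1a knockout, 9 in Braf Arid2 knockout and 8 in Braf Smarcb1 knockout, and leukocyte markers fell, 7 of 7, 1, 1 and none; of 11 fibroblast markers 1 rose in Braf, 1 rose in Braf Smarcb1 knockout and none was called in the other pair of genotypes. Fibroblast sums under CKI were 390 to 914 CPM in Braf, 345 to 590 in Braf Arid1a knockout, 190 to 250 in Braf Arid2 knockout and 161 to 255 in Braf Smarcb1 knockout, and the part of changing cell types in the collagen values was not tested further.

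Col6a1 was the called gene in 2 genotypes, and was lower with CKI. In Braf it stood at 617, 1854 and 1102 CPM under vehicle and 295, 154 and 282 under CKI (-2.29, SE 0.76, adjusted p = 0.0488). In Braf Arid2 knockout it stood at 1087 and 296 CPM under vehicle and 41.6 and 79.4 under CKI (-3.51, SE 0.98, adjusted p = 0.0479). In both genotypes every treated library was below every vehicle library, and Col6a2 took the same course without a call (372, 889 and 753 CPM to 206, 112 and 193 in Braf, adjusted p = 0.0847, and 665 and 210 to 33.6 and 55.0 in Braf Arid2 knockout, adjusted p = 0.0611). The call in Braf was lost without any of its 6 libraries (-2.54 to -1.85) and with the fibroblast covariate (-1.85, adjusted p = 0.0734), and that in Braf Arid2 knockout without library 2 of vehicle or either treated library (-4.18 to -2.29). In Braf Arid1a knockout Col6a1 stood at 76.0, 195 and 51.6 CPM under CKI and in Braf Smarcb1 knockout at 258, 105 and 913, each overlapping its vehicle group.

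In Braf Arid1a knockout the called gene was Col24a1, with 0 counts under vehicle and 51 under CKI, at 0.203, 0.250 and 1.47 CPM. That made it at least 18.2-fold higher (3 counts over the group as the floor, counting error only, adjusted p = 0.0424), or at least 6.71-fold without treated library 5, and the call was lost when any of 5 of its 6 libraries was left out. In Braf Smarcb1 knockout the smallest p belonged to Col4a2, at 38.9, 52.9 and 32.3 CPM under vehicle and 145, 43.7 and 300 under CKI (1.98, SE 0.58, adjusted p = 0.0572), to Col9a3 (2.33, SE 0.70, adjusted p = 0.0643) and to Col25a1 (1.64, SE 0.52, adjusted p = 0.0801). Col4a1 stood there at 194, 204 and 82.0 CPM under vehicle and 464, 126 and 1200 under CKI (1.90, SE 0.67, adjusted p = 0.117).

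Col9a3, chosen after its values were seen, was the only collagen gene whose treated libraries were all above its vehicle libraries in all 4 genotypes, 1 of 42 tested against 0.999% of all genes. It stood at 3.82, 25.1 and 27.5 CPM under vehicle and 82.7, 48.8 and 80.1 under CKI in Braf, at 3.997, 3.991 and 0.667 and then 20.7, 4.54 and 11.8 in Braf Arid1a knockout, at 10.4 and 10.4 and then 68.0 and 53.2 in Braf Arid2 knockout, and at 1.01, 2.16 and 0.843 and then 7.21, 7.98 and 5.02 in Braf Smarcb1 knockout. The changes were 1.90, 2.10, 2.55 and 2.33, with adjusted p of 0.0626, 0.0809, 0.0887 and 0.0643 by edgeR's quasi-likelihood test, none past the threshold, though with the fibroblast covariate the change in Braf was called (2.32, adjusted p = 0.0417). Col25a1 took a like course, at 16.8, 17.9 and 14 CPM and then 46.7, 20.4 and 41.0 in Braf, 136, 199 and 146 and then 664, 261 and 403 in Braf Arid1a knockout, and 33.8 and 12.6 and then 74.5 and 77.4 in Braf Arid2 knockout. Only in Braf Smarcb1 knockout did its groups overlap (7.53, 5.49 and 6.09 and then 40.9, 11.98 and 6.59 CPM). None of its changes was called. The cartilage markers that are not collagens had a mean log2(CPM + 1) of 2.88 under vehicle and 3.91 under CKI in Braf. In Braf Arid1a, Braf Arid2 and Braf Smarcb1 knockout it was 1.435 and 2.15, 1.90 and 2.48, and 2.43 and 2.99. Their mean sums were 223 and 499.9 CPM in Braf and 68.4 and 287 in Braf Arid1a knockout. They were 257 and 212 CPM in Braf Arid2 knockout and 468.5 and 188 in Braf Smarcb1 knockout. Their part in Col9a3 was not tested.

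The other chains given for every group stood as follows under CKI. Col3a1 was at 3086, 471 and 1147 CPM in Braf, 745, 1506 and 83.6 in Braf Arid1a knockout, 181 and 226 in Braf Arid2 knockout, and 2743, 832 and 11830 in Braf Smarcb1 knockout. Col1a2 was at 1918, 276 and 591 CPM, 380, 656 and 125, 111 and 191, and 705, 205 and 1087 in the same order, and Col1a1 at 561, 70.0 and 182 CPM, 153, 206 and 11.8, 34.4 and 68.1, and 173, 48.3 and 374. In each genotype these libraries overlapped those under vehicle. Col4a1 stood under CKI at 373, 121 and 413 CPM in Braf, 317, 181 and 365 in Braf Arid1a knockout and 113 and 227 in Braf Arid2 knockout, and Col4a2 at 186, 57.5 and 140, 95.3, 74.2 and 165, and 44.7 and 86.9 CPM in these 3 genotypes. Col4a4 was at 18.9, 25.0 and 27.4 CPM in Braf, all above vehicle (0.98, SE 0.47, adjusted p = 0.170), at 10.7 and 19.4 in Braf Arid2 knockout, both above vehicle (2.08, SE 0.60, adjusted p = 0.0552), at 31.5, 29.95 and 75.7 in Braf Arid1a knockout, which overlapped vehicle (-0.09, SE 0.46, adjusted p = 0.940), and at 3.40, 5.89 and 2.27 in Braf Smarcb1 knockout, which overlapped it. None of these drug changes was called.

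No collagen gene was called for a difference in drug response between a knockout and Braf, by an interaction term in the same fit. This held for Arid1a (0% of all genes called), Arid2 (8.66%, with 1.47% higher and 7.19% lower) and Smarcb1 (0.305%, with 0.11% higher and 0.195% lower), and DESeq2 called none either (0.905%, 15.5% and 1.41% of all genes). At an unadjusted p under 0.05 in edgeR's test there were 9, 0 and 5 collagen genes, and the share of all genes at that threshold was not counted. With almost none of all genes called for Arid1a and Smarcb1, the lack of a call there does not show equal responses. The median collagen difference was 1.52 for Arid1a and 0.94 for Smarcb1, against 0.05 and 0.03 for all genes. Without library 4 of Braf under vehicle these collagen medians were 0.68 and 0.28, and with the fibroblast covariate -0.18 and -0.62. The smallest p for Arid1a belonged to Col24a1 (8.28, SE 2.34, adjusted p = 0.262, a fitted value against a group at 0), Col14a1 (3.85, SE 1.28, adjusted p = 0.304) and Col5a3 (3.35, SE 1.26, adjusted p = 0.343). For Arid2 it belonged to Col12a1 (-1.71, SE 0.94, adjusted p = 0.274), Col27a1 (-2.63, SE 1.56, adjusted p = 0.318) and Col4a2 (-1.42, SE 0.89, adjusted p = 0.348). For Smarcb1 it belonged to Col6a1 (3.04, SE 1.04, adjusted p = 0.298), Col6a2 (3.003, SE 1.05, adjusted p = 0.307) and Col5a2 (2.25, SE 0.85, adjusted p = 0.333).

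Genes that modify, cut and crosslink collagen moved with genotype as well. The calls of this list and of the later lists were not checked gene by gene with libraries left out. Of 30 tested, 9 were higher and 1 lower in Braf than in wild type, against 9.84% and 10.1% of all genes, and values given with gene names here are log2 fold changes. The 4 with the smallest p were Fkbp10 (2.69), a chaperone, Loxl3 (3.77), a crosslinking oxidase, Bmp1 (1.93), the protease that trims the end of fibrillar chains, and Leprel2 (2.54), the older symbol of the prolyl hydroxylase P3h3. In Arid1a knockout 9 were higher and 1 lower than in wild type (6.84% and 11.8% of all genes). The 4 with the smallest p there were P4hb (-1.74), a subunit of prolyl hydroxylase, Leprel2 (2.55), Loxl3 (2.74) and Pcolce (2.65), which enhances Bmp1.

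Against Braf under vehicle, 9 of these genes were lower and none higher in Braf Arid1a knockout (5.31% and 4.25% of all genes), led by Loxl3 (-2.94), Loxl2 (-3.97), Leprel2 (-2.21) and Bmp1 (-1.36). Braf Smarcb1 knockout had 7 lower and 5 higher (14.2% and 14.4% of all genes), led by P4ha2 (-2.66), a prolyl hydroxylase subunit with an adjusted p of 3.36e-06 by edgeR's quasi-likelihood test, Adamts14 (5.40) and Adamts3 (-2.59), proteases of procollagen, and Pcolce (-2.85). Braf Arid2 knockout had Plod2 (1.53), a lysyl hydroxylase, higher and Pcolce (-3.14) lower. The drug raised Plod2 in Braf (1.25, SE 0.33, adjusted p = 0.0179) and in Braf Smarcb1 knockout (1.48, SE 0.33, adjusted p = 0.0131). In Braf Arid2 knockout its response was called different from that in Braf (interaction -2.35, SE 0.51, adjusted p = 0.0143). This call was lost without treated library 3 of Braf Arid2 knockout, where the interaction called 0 of all genes tested. Without treated library 4 it called 1 of all genes. The drug lowered Bmp1 in Braf (-1.15, SE 0.33, adjusted p = 0.0254) and in Braf Arid2 knockout (-1.85, SE 0.41, adjusted p = 0.0158).

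Small proteoglycans that coat fibrils also differed between genotypes. Of 11 tested, 7 were higher and none lower in Braf than in wild type, where 9.84% of all genes were higher (Bgn, Aspn, Epyc and Lum with the smallest p, 2.89 to 4.99), and 6 in Arid1a knockout, against 6.84% of all genes (Dcn, Bgn, Lum and Epyc, 3.41 to 5.74). Against Braf 9 were lower in Braf Arid1a knockout (Dcn -3.13, Lum -4.57, Bgn -3.49 and Aspn -3.71), 5 in Braf Arid2 knockout (Dcn -3.49, Aspn -4.58, Lum -4.55 and Bgn -3.20) and 9 in Braf Smarcb1 knockout (Bgn -4.88, Aspn -5.14, Dcn -3.08 and Prelp -4.03), with none higher, where 5.31%, 1.28% and 14.2% of all genes were lower. In Braf Arid2 knockout against Braf, 686 of all genes were called in either direction. That number was 1 with only the compared groups, 74 with the fibroblast covariate and 54 without library 4 of Braf. It was 38 without library 2 of the knockout and 89 without its library 4.

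Basement membrane genes that are not collagens, 17 of them tested, also moved with genotype. Braf Arid1a knockout had 7 lower than Braf (5.31% of all genes), led by Sparc (-2.40), a collagen-binding protein, Lama4 (-4.25), Nid1 (-3.69) and Lamb1 (-2.59). Braf Smarcb1 knockout had 8 lower (14.2% of all genes), led by Lamb3 (-4.25), Lama2 (-3.65), Agrn (-1.53) and Nid1 (-3.93), and 1 higher, Pxdn (1.53), the enzyme that crosslinks type IV. Of 9 collagen receptors tested, Itga2 (4.15) and Itga10 (2.21) were higher in Braf than in wild type, a share near the 20% of all genes called there in either direction. Ddr2, a kinase receptor for fibrillar collagen, was higher in Arid1a knockout than in wild type (3.24) and lower than in Braf in Braf Arid1a knockout (-4.04) and Braf Smarcb1 knockout (-3.49). Under CKI Itga2 (-3.27) and Itga10 (-3.01) fell and Ddr1 (1.97) rose in Braf Arid1a knockout.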

How the data were processed

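RNA-seq of mouse thyroid gave one table of counts per gene, whole numbers as the authors deposited them. The submitters' processing notes name STAR 2.4, HTSeq 0.6.1, DESeq2 and mm9, with no role or order, and strandedness is not given in the sources used here. Of 30 labelled samples 28 were analysed, and 2 of Braf Arid2 knockout were not analysed here. The labels do not tie replicates to different mice. The p-values therefore reflect library-to-library spread alone, part of which may be technical.

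Genes were filtered with filterByExpr (19016 passed), scaled by TMM and fitted in 1 model of 28 libraries with a term per group in edgeR 4.0.16 (R 4.3.3), tested by quasi-likelihood with Benjamini-Hochberg adjustment over all genes tested at 0.05, in 12 comparisons. Floors account for sampling of reads alone. The code was tested on simulated data. Alternatives were RLE scaling, no filter, DESeq2 1.42.0, only the compared groups, a replicate block, a fibroblast covariate and leaving out each library.

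By the naming rule, called genes were named up to 12 a comparison, every library's value was given for the 4 with the smallest p and the called gene of highest mean level in a class, and 8 chains were given in every group. Members and lists were chosen with earlier results of these data known.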

Additional observations from a re-analysis of the deposited data

Results flagged for a closer look

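In 3 of 42 collagen genes tested, treated libraries all lay above vehicle libraries in one genotype and all below them in another, against 16.8% of all genes. Treated and vehicle libraries were different samples, and some of these groups held only 2. None of these differences between genotypes passed the threshold by edgeR's quasi-likelihood test. For Col11a1 the response in Braf Arid1a knockout minus that in Braf Arid2 knockout was 2.79 on the log2 scale (SE 1.85, adjusted p = 0.435). For Col24a1 the response in Braf Arid1a knockout minus that in Braf Smarcb1 knockout was 8.35 (SE 2.43, adjusted p = 0.167), a fitted value against a group with no count. For Col8a2 the response in Braf Arid1a knockout minus that in Braf Arid2 knockout was 1.74 (SE 1.52, adjusted p = 0.569), and that in Braf Smarcb1 knockout minus that in Braf Arid2 knockout was 2.53 (SE 1.53, adjusted p = 0.376).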

How the results depend on the processing

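Counts of called collagen genes moved with the setting, and the cause was not tested. So did the share of all genes called, given as a percentage beside each count. CKI in Braf gave 1 (13%), and 0 with the replicate block (11.3%), 2 with the fibroblast covariate (13.2%), 2 with only the compared groups (8.83%) and 5 with DESeq2 (20.6%), or 0 to 1 with a library left out. CKI in Braf Arid1a knockout gave 1 (4.51%), and 0 with the block (0.931%), 2 with the covariate (5.33%), 2 with only the compared groups (3.4%) and 7 with DESeq2 (9.75%), or 0 to 2 with a library left out. CKI in Braf Arid2 knockout gave 1 (3.37%), and 2 without the filter (2.22%), 0 with the block (2.65%), 3 with the covariate (4.02%), 5 with only the compared groups (10.8%) and 6 with DESeq2 (9.5%), or 0 to 2 with a library left out. CKI in Braf Smarcb1 knockout gave 0 (3.85%), and 1 without the filter (2.08%), 1 with the covariate (3.61%) and 5 with DESeq2 (8.52%), or 0 to 1 with a library left out. Against Braf, Braf Arid1a knockout gave 19 (9.56%), and 8 with the block (5.76%), 1 with the covariate (2.1%) and 7 with only the compared groups (5.36%), or 5 to 26 with a library left out. Braf Arid2 knockout gave 0 (3.61%), and 4 without the filter (2.33%) and 11 with DESeq2 (11.1%), or 0 to 4 with a library left out. Braf Smarcb1 knockout gave 12 (28.6%), and 6 with only the compared groups (14.8%) and 21 with DESeq2 (33.4%), or 6 to 17 with a library left out. Against wild type, Braf gave 18 (20%), and 11 with the block (15%) and 10 with the covariate (20.4%), or 9 to 18 with a library left out. Arid1a knockout gave 9 (18.6%), and 0 with the covariate (1.79%) and 15 with only the compared groups (14.6%), or 1 to 9 with a library left out.

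With the covariate 18 changes of called genes reversed. In Braf Arid1a knockout against Braf these were Col11a1 (0.93), Col1a1 (0.32), Col1a2 (0.64), Col3a1 (0.76), Col6a3 (0.86) and Col8a2 (0.21). In Braf Smarcb1 knockout against Braf they were Col14a1 (1.18), Col1a2 (2.63), Col5a1 (0.82), Col6a3 (2.47) and Col8a2 (0.20). In Braf against wild type they were Col11a1 (-0.24), Col14a1 (-1.17), Col1a1 (-0.20), Col3a1 (-1.20) and Col8a1 (-0.50), and in Arid1a knockout Col14a1 (-0.34) and Col3a1 (-0.54). DESeq2 and no filter kept all 61 single-gene calls.

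Same-numbered libraries of compared groups had correlations of deviations between -0.535 and 0.241, so the replicate block rests on a shared number only. It gave 8, 11 and 0 calls where named above. In Arid1a knockout against wild type, with 3 shared numbers, replicates 1 and 2 correlated best with their own number and replicate 3 with replicate 1.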
